A study of Mus musculus with 7 samples.

Results

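Oxidative phosphorylation is carried out in the inner mitochondrial membrane. Complex I takes electrons from NADH and complex II takes them from succinate. Complex III and complex IV pass them on to oxygen, and complex V, the ATP synthase, uses the resulting proton gradient to make ATP. In pancreatic β-cells the ATP made from glucose closes potassium channels, so this machinery lies between glucose and insulin release. The subunits described here are encoded in the nucleus, and their mRNA was measured in mouse islets with and without inducible loss of Wnt4 in β-cells.

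The members were the genes whose symbol begins with Nduf followed by a, b, c, s or v and a number, Sdha to Sdhd, and those whose symbol begins with Uqcr, Cox4 to Cox8 or Atp5. The array named 22911 genes through RefSeq accessions, and 83 of them met this rule, with 37 in complex I, 4 in complex II, 8 in complex III, 17 in complex IV and 17 in complex V. A complex was assigned from the symbol alone, so Ndufa4, for example, which is known as a subunit of complex IV, was counted with complex I. Cyc1 falls outside the rule and was listed with the electron carriers. Each gene was represented by its brightest probe. Of the members, 80 had a probe whose spots exceeded background clearly on 3 or more of the 7 arrays, and these could be tested. RefSeq held 22 further symbols that meet the rule and had no named probe here, 4 of them protein-coding (Cox5b, Ndufb1, Ndufb4b and Ndufb4c) and the others pseudogenes.

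Islet RNA of 7 samples was hybridised to single-colour oligonucleotide arrays. Per the paper's reporting summary, each group began with 4 samples, and 1 control was left out for failing quality tests. The mice of the 4 Wnt4βKO samples carried Pdx1CreER, a tamoxifen-inducible Cre recombinase under the Pdx1 promoter, and Wnt4 fl/fl, the floxed Wnt4 alleles. The mice of the 3 control samples were Pdx1CreER Tg- and Wnt4 fl/fl, and the labels give their genotype as WT. Both groups received tamoxifen by gavage at 4 to 5 weeks of age, were of a line crossed to C57BL/6J and gave islets at 7 weeks. Per the study's methods the mice were male. The Pdx1 promoter limits Cre to cells that use it, mainly β-cells in adult islets. No control carried Cre without floxed alleles, so an effect of Cre with tamoxifen cannot be told apart from the loss of Wnt4. The arrays lay on 1 slide in 2 rows, with control replicate 4 and Wnt4βKO replicates 1 and 2 in row 1 and the other 4 arrays in row 2. Each array is 1 islet sample, and the study's methods do not say whether it came from a single mouse. With so few samples the intervals are wide.

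The share of spots that clearly exceeded background ran from 45.5% to 49.0% per array, and none was saturated. The Wnt4 probe gave log2 signals of 11.55, 11.17 and 11.80 in control and 11.32, 10.82, 11.01 and 10.90 in Wnt4βKO islets. The log2 difference was -0.49 ± 0.17 (SE), or 71.0% of the control level (limma unadjusted p = 0.0237, adjusted p = 0.651). Its groups overlapped, and the probe's place in relation to the floxed region is not known here. The paper separately reports reduced Wnt4 in Wnt4βKO islets by qPCR and by immunostaining. All 12 β-cell markers, 4 α-cell markers and 3 δ- and PP-cell markers were well above background on every array, as islets should show. Their mean log2 signals overlapped between control and Wnt4βKO islets, at 11.02 to 11.14 and 10.85 to 11.25 for β-cell markers. For α-cell markers they were 8.42 to 8.87 and 8.55 to 8.85, and for δ- and PP-cell markers 11.46 to 11.77 and 11.53 to 11.69. Ins1 gave a log2 difference of 0.30 and Glp1r -0.47 (unadjusted limma p of 0.0232 and 0.0298). The mean log2 signal of 22 acinar genes, 22 of them tested, lay between 13.22 and 13.39 in control and between 12.24 and 13.15 in Wnt4βKO islets, without overlap. The corresponding ranges were 7.57 to 7.65 and 7.12 to 7.61 for 6 of 7 duct markers, 7.44 to 7.75 and 7.32 to 7.77 for 8 of 8 endothelial markers, 7.89 to 8.03 and 7.78 to 8.94 for 10 of 11 immune markers, and 7.13 to 8.28 and 6.84 to 8.24 for 7 of 8 stromal markers. Cftr, Lyz2 and Pdgfra were not tested, being too dim. Spike-in RNA, relative to the 75th percentile of its array, had log2 values from 1.87 to 2.19 in control and of 3.90, 2.80, 2.46 and 2.29 in Wnt4βKO arrays. These values did not overlap between the groups either. No fit included the spike-in share, so its part in the results below was not tested. The part of acinar RNA was not tested beyond the fits named there. The acinar means of the groups did not overlap, so a fit with that mean as a covariate cannot fully separate acinar RNA from genotype. In that fit 2.36% of all tested probes had an unadjusted limma p under 0.05, against 7.02% without the covariate. This limit applies to every value given below with the acinar covariate.

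No subunit transcript differed between the groups at an adjusted p under 0.05. The median log2 difference, Wnt4βKO minus control, was 0.012 over the 80 tested members and 0.001 over all 26151 tested probes. Of the members, 41 lay above 0 and 39 below it. In limma the lowest adjusted p of a member was 0.529, so 0 of 80 passed, whereas 4 of all tested probes passed (0.0153%). At an unadjusted p under 0.05 there were 6 members (7.50%), against 1835 of all tested probes (7.02%). Their unadjusted limma p lay between 0.00559 and 0.0477. Of these 6, 3 were higher in Wnt4βKO islets (background 3.26%) and 3 were lower (background 3.76%). The share of members at this threshold is close to the background share and is no result about the subunits. Whether a lower signal came from fewer cells of a type or from less RNA per cell cannot be told apart in whole islets.

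**Figure D1:**
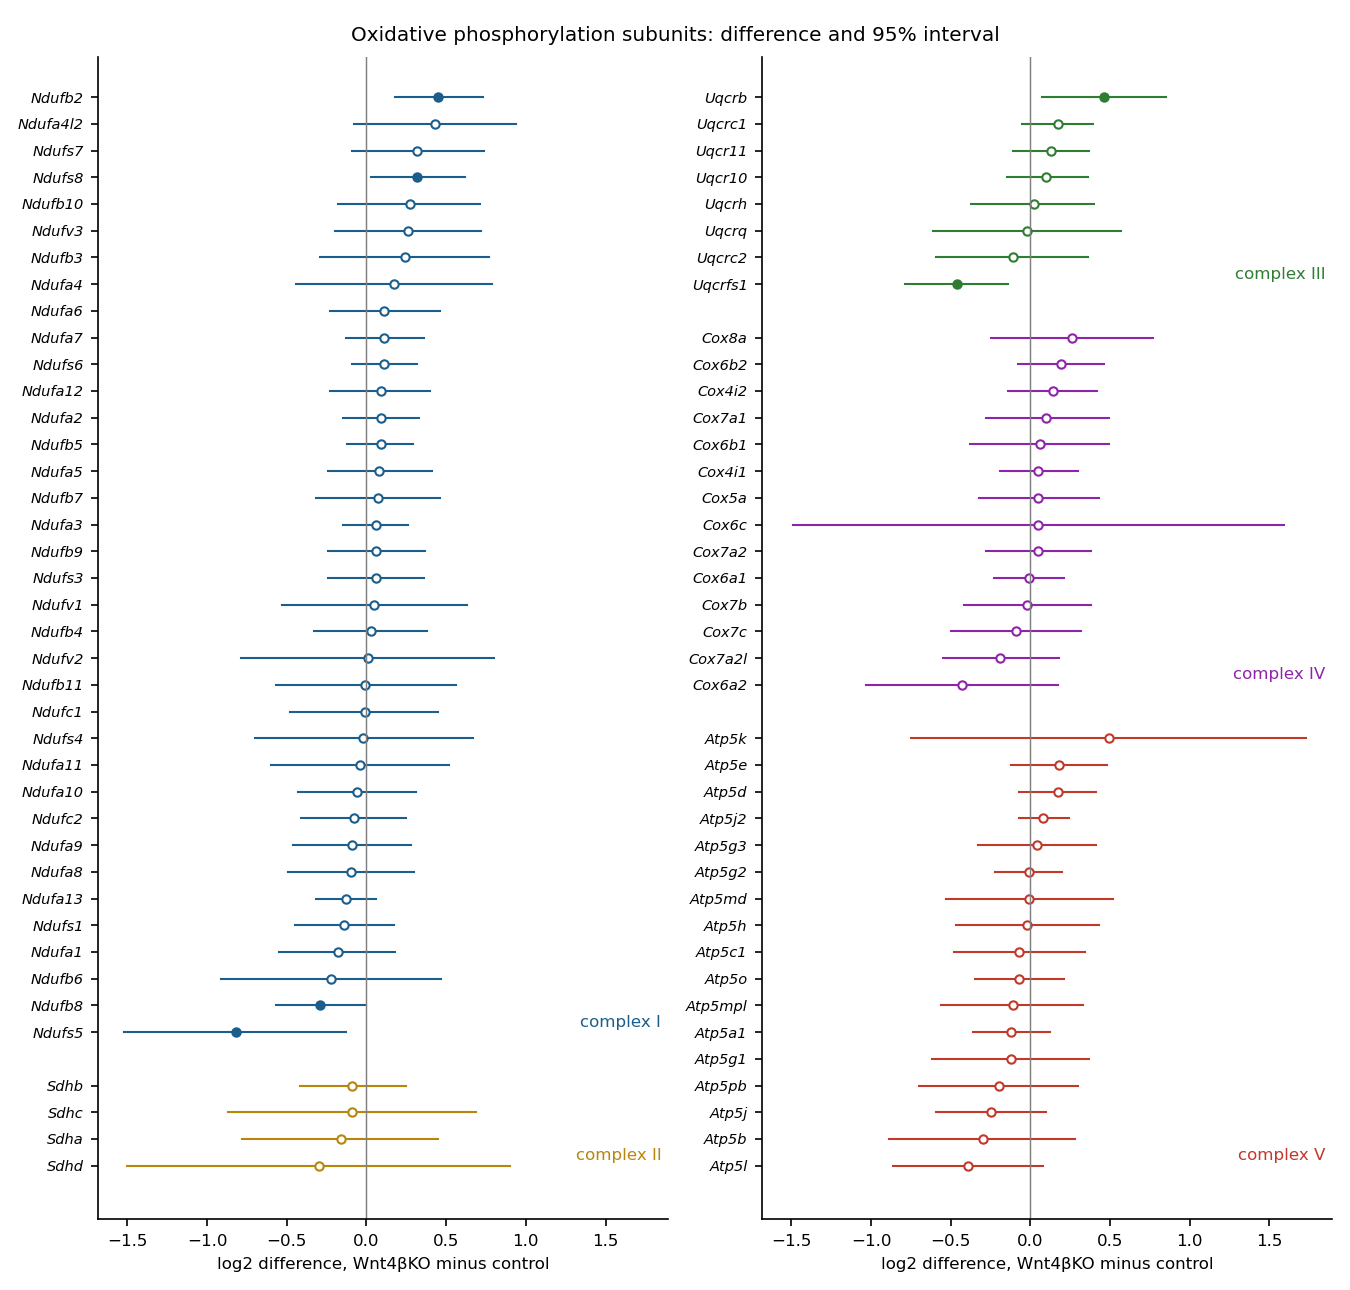
The x axis gives the log2 difference, Wnt4βKO minus control, of the tested subunits, 1 of which is not drawn, with its 95% confidence interval from limma as a line, ordered by difference within each complex. Filled points mark the 6 subunits at an unadjusted p under 0.05, and the intervals of all others drawn cross 0.

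The precision of these values can be read from the intervals. The median half-width of the 95% interval was 0.38 on the log2 scale for the members, 0.27 for all tested probes and 0.37 for the 2050 tested probes with a mean log2 signal of at least 10. For 49 of the 80 members (61.3%) the whole interval lay within a 1.5-fold change in either direction. The same held for 76.2% of all tested probes and 56.5% of the bright ones. The other members had wider intervals, and for them a change of that size could not be told from none. The widest belonged to Cox6c, a structural subunit of complex IV, whose interval ran from -1.49 to 1.59.

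Between the complexes the medians differed by small amounts. The median log2 difference was 0.055 in complex I, 0.060 in complex III and 0.052 in complex IV. It was -0.128 over the 4 members of complex II and -0.070 in complex V. Of the tested members, 22 of 37 lay above 0 in complex I, 5 of 8 in complex III and 9 of 14 in complex IV. In complex V 5 of 17 lay above 0, and in complex II none of the 4. On the single arrays these medians overlapped between the groups in every complex. Wnt4βKO replicate 2 had the lowest median of complex I, at -0.146 relative to each gene's mean over the 7 arrays, and the other Wnt4βKO arrays lay between 0.049 and 0.070. Control replicate 3 was lowest in complex III at -0.195 and in complex IV at -0.159, and highest in complex II at 0.365.

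**Figure D2:**
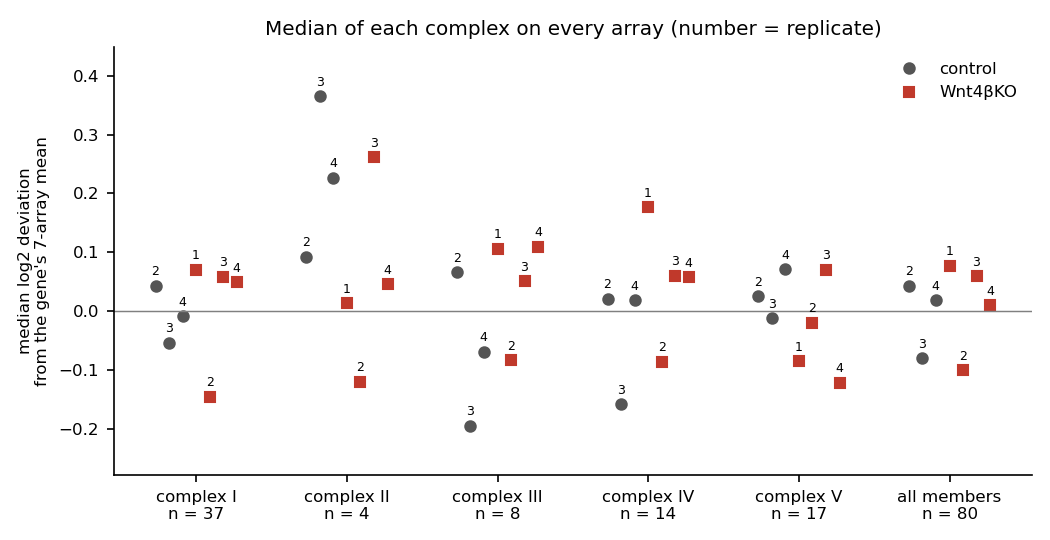
For each complex the y axis gives the median, over its tested subunits, of the log2 deviation from the gene's mean over the 7 arrays, with 1 point per array and the replicate number beside it. Control circles and Wnt4βKO squares overlap in every complex, and over all 80 members the arrays lie between -0.101 and 0.077.

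The medians depended on how the arrays were scaled. When the scanner's processed signal was instead divided by each array's 75th percentile, the median over the members was 0.141, with 62 members above 0 and 18 below. The median was then 0.186 in complex I, -0.039 in complex II, 0.193 in complex III, 0.141 in complex IV and 0.029 in complex V. Under that scaling the median was 0.029 over all tested probes and 0.142 over those with a mean log2 signal of at least 10, so the bright probes as a whole lay where the members lay. Median scaling gave 0.067 over the members and 0.055 over the bright probes. With the acinar mean as a covariate the median was -0.044 in complex I and -0.043 in complex IV, and 0.053 in complex V, so those 3 signs turned. It was then -0.007 in complex II and 0.025 in complex III. Across the 5 settings plotted, complex II stayed below 0 and complex III above 0, and complexes I, IV and V changed sign. With the mean over the probes of a gene complex III was at -0.002. In that setting the value of Uqcrb on Wnt4βKO replicate 3 came from its dimmer probe alone. These medians carry no test, and none is given as a direction.

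**Figure D3:**
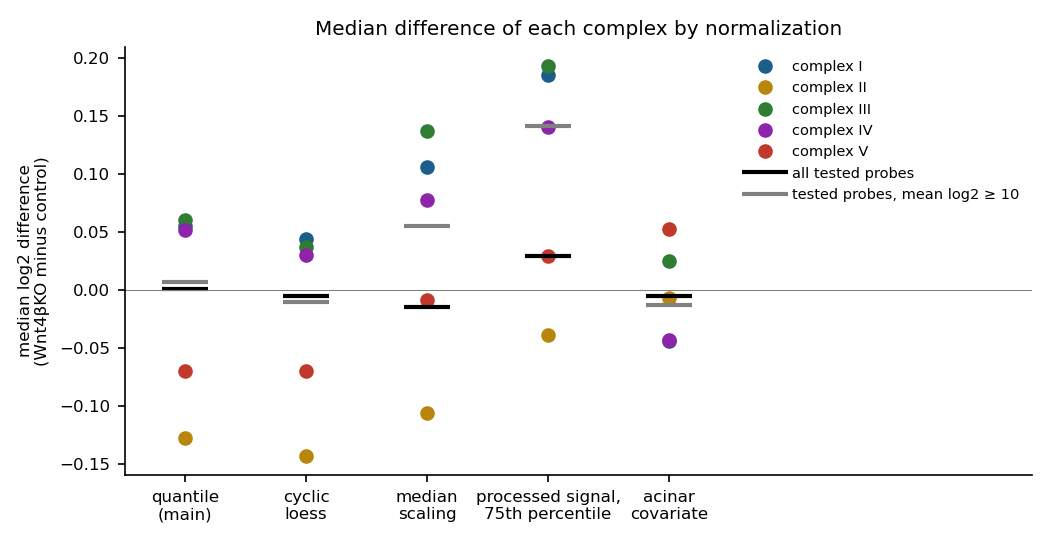
The y axis gives the median log2 difference, Wnt4βKO minus control, of each complex under 5 settings, with black bars for all tested probes and grey bars for tested probes with a mean log2 signal of at least 10. In the setting with the processed signal the grey bar lies at 0.142 and the median of complex IV at 0.141, whereas under quantile normalization they lie at 0.007 and 0.052.

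Known regulators of nuclear-encoded subunits include nuclear respiratory factor NRF1, the ETS family factor GABP, YY1 and the estrogen-related receptors (ERR), and most of these were themselves measured. RefSeq promoters of 300 bases, from 250 before to 50 after the gene start on mouse assembly GRCm38.p6, were listed for 67 of the 83 members, in 72 promoters. The letters CGCATGCG, a core of the NRF1 motif, were found on either strand in 12.5% of the member promoters and in 1.87% of all 32851 listed promoters. CCGGAAG, the ETS core, was found in 23.6% and 8.86%, AAGATGGC, the YY1 core, in 13.9% and 2.75%, and AAGGTCA, the ERR half-site, in 11.1% and 4.72%. TATAAA was found in 12.5% and 13.6%. No motif contains another, and a match is a description of the letters, not of binding. At least 1 of the NRF1, ETS, YY1 and ERR letters was found in 34 of the 67 listed members. These were 47.2% of the member promoters, against 16.9% of all listed promoters. Of the 6 members at an unadjusted p under 0.05, Ndufb2, Ndufs5, Ndufs8 and Ndufb8 held 1 of these matches each, so a match is not particular to the 6. The promoter of Uqcrfs1 held none, and Uqcrb was not in the promoter list. The matches in these 4 are shown because their values follow below, together with the NRF1 match of Atp5j, whose promoter held NRF1, ETS and YY1 letters. Each sequence reads 5′ to 3′ on the gene's strand, and capitals mark the match. Positions count from 0 at the gene start. For Ndufs5 and Ndufs8 the capitals are the reverse complement of the letters given above.
Ndufb2, ERR letters at -181, chr6:39592358-39592416, plus strand: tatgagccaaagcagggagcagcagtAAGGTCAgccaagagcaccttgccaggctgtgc
Ndufs5, ERR letters at -228, chr4:123718382-123718436, minus strand: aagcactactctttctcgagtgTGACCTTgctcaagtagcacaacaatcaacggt
Ndufs8, ETS letters at 15, chr19:3912742-3912770, minus strand: ttaggctccgcCTTCCGGttgaaccgcat
Ndufb8, YY1 letters at 38, chr19:44555393-44555415, minus strand: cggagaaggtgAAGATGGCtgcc
Atp5j, NRF1 letters at -147, chr16:84835090-84835149, minus strand: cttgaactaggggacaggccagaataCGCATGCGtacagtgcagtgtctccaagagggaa

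In complex I, Ndufb2, an accessory subunit of the membrane arm, had the lowest p of all members. Its log2 signal was 10.77, 10.35 and 10.55 in control and 11.17, 10.94, 11.03 and 10.91 in Wnt4βKO islets. The 2 groups did not overlap. The log2 difference was 0.45 ± 0.12 (SE), or 137% of the control level, with an unadjusted limma p of 0.00559 and an adjusted p of 0.529. It was 0.50 among the arrays of slide row 1 and 0.41 among those of slide row 2. Over 20 alternative settings of the processing, among them each array left out, the difference ranged from 0.35 to 0.57, and the unadjusted p was under 0.05 in 18 of them. The exceptions were the processed signal at the 75th percentile, where p was 0.0670, and the acinar covariate, where p was 0.0608.

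Ndufs8, which carries iron-sulfur clusters in the peripheral arm, had log2 signals of 11.64, 11.52 and 11.54 in control and 12.09, 11.60, 11.81 and 12.05 in Wnt4βKO islets. Only Wnt4βKO replicate 2 lay within the control range. The log2 difference was 0.32 ± 0.13 (SE; limma adjusted p = 0.682). With the acinar mean as a covariate the difference was 0.05 and its unadjusted p 0.711. The unadjusted p was under 0.05 in 8 of the 20 alternatives.

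Ndufs5, an accessory subunit, showed the lowest log2 difference of any member. Its signals were 11.25, 11.38 and 10.09 in control and 9.88, 10.15, 10.11 and 10.20 in Wnt4βKO islets. Control replicate 4 lay with the Wnt4βKO arrays, more than 1 log2 unit below the other controls. The difference was -0.82 ± 0.30 (SE; limma adjusted p = 0.661), which is 56.6% of the control level. Without control replicate 4 it was -1.23 with an unadjusted p of 2.61e-05 (adjusted p = 0.126). Without control replicate 3 it was -0.58 with an unadjusted p of 0.0990. The unadjusted p was under 0.05 in 13 of the 20 alternatives. Within slide row 1, whose only control array is replicate 4, the difference was -0.07, and within row 2 it was -1.16. RefSeq lists a transcribed pseudogene of Ndufs5, and whether this probe also binds such a copy was not examined.

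Ndufb8, a membrane-arm accessory subunit, gave 11.58, 11.50 and 11.44 in control and 11.42, 11.34, 10.94 and 11.20 in Wnt4βKO islets on the log2 scale. The groups did not overlap, but the lowest control array and the highest Wnt4βKO array differed by little. The log2 difference was -0.29 ± 0.12 (SE; limma adjusted p = 0.703). It was -0.04 with the processed signal at the 75th percentile, -0.07 within slide row 1 and -0.47 within slide row 2. The unadjusted p was under 0.05 in 7 of the 20 alternatives.

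Of the core subunits of complex I, Ndufs8 above had an unadjusted p under 0.05, and the listed Ndufv1 and Ndufs1 did not. For Ndufv1, the subunit that binds NADH, the log2 difference was 0.05 (95% interval -0.53 to 0.63). For Ndufs1, an iron-sulfur subunit, it was -0.14 (-0.45 to 0.17). Ndufa4 gave 0.17 (-0.44 to 0.79). Ndufa4l2, its paralogue known as a gene induced by hypoxia, had log2 signals of 6.40, 6.84 and 7.14 in control and 7.01, 7.12, 7.10 and 7.68 in Wnt4βKO islets. The groups overlapped, and the difference of 0.43 ± 0.22 (SE) had an unadjusted p of 0.0860.

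Complex II, succinate dehydrogenase, also belongs to the tricarboxylic acid cycle. Its flavoprotein Sdha had a log2 difference of -0.16 (95% interval -0.78 to 0.45) and its iron-sulfur subunit Sdhb had -0.09 (-0.42 to 0.25). The membrane anchors gave -0.09 for Sdhc (-0.87 to 0.69) and -0.30 for Sdhd (-1.50 to 0.90). Sdhd was missing on control replicate 3, where the spot was excluded as an outlier, and Wnt4βKO replicate 4 at 7.84 lay apart from the other arrays at 9.22 to 9.76. The differences of all 4 were below 0 and none had an unadjusted p under 0.05. Intervals in this complex had a median half-width of 0.70, the widest of the 5 complexes.

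In complex III, Uqcrfs1 and Uqcrb stood at opposite ends. Uqcrfs1, the Rieske iron-sulfur protein, had log2 signals of 9.07, 9.33 and 9.38 in control and 9.08, 8.59, 8.86 and 8.67 in Wnt4βKO islets. Wnt4βKO replicate 1 lay just above control replicate 2, and the others lay below all controls. The log2 difference was -0.46 ± 0.14 (SE), or 72.5% of the control level, with an unadjusted limma p of 0.0115 and an adjusted p of 0.608. It was -0.55 within slide row 1 and -0.44 within row 2. Over the 20 alternatives it ranged from -0.68 to -0.39, and the unadjusted p exceeded 0.05 only under 2 scalings, the processed signal at the 75th percentile (0.120) and the median (0.156). With the acinar mean as a covariate the difference was -0.68 and its unadjusted p 0.00769.

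Uqcrb, which lies beside the ubiquinone site, had log2 signals of 9.70, 9.79 and 9.77 in control islets and 10.48, 10.29 and 9.87 in Wnt4βKO replicates 1, 2 and 4. The spot of Wnt4βKO replicate 3 was excluded as an outlier, so the fit used 3 arrays per group. These 3 lay above all controls, replicate 4 by a small margin. The log2 difference was 0.46 ± 0.16 (SE; limma adjusted p = 0.661). It was 0.61 within slide row 1 and 0.13 within row 2. Over the 20 alternatives it ranged from -0.31 to 0.63, and the unadjusted p was under 0.05 in 9 of them. The sign turned only with the mean over the probes of the gene, at -0.31, where Wnt4βKO replicate 3 held a dimmer probe alone. With the acinar covariate the unadjusted limma p was 0.185. That dimmer probe of Uqcrb, with a value on every array, had a log2 difference of -0.10 (unadjusted limma p of 0.629). Uqcrc1, a core subunit, gave 0.17 (95% interval -0.05 to 0.39), and the remaining 5 members of the complex lay between -0.11 and 0.13.

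**Figure D4:**
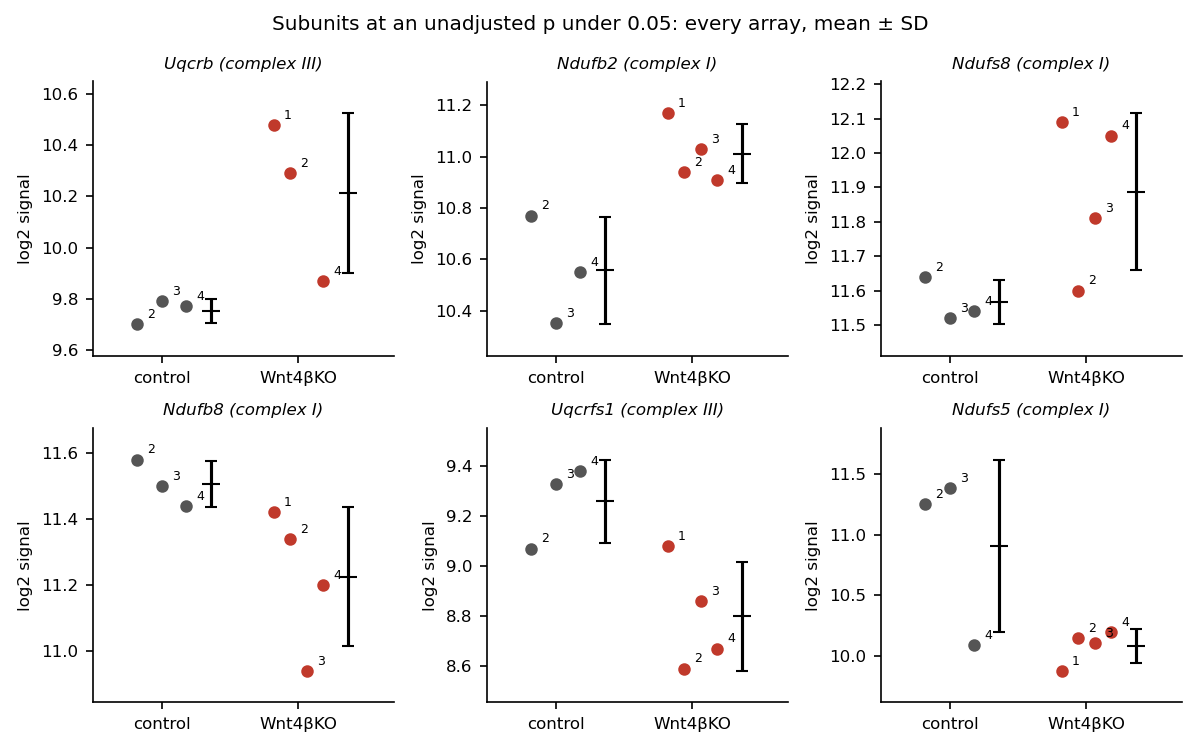
Each panel gives the log2 signal of 1 subunit on every array, with the replicate number beside the point and the group mean ± SD as a bar, for the 6 subunits at an unadjusted p under 0.05. Ndufb2, Uqcrb and Ndufb8 have groups that do not overlap, and for Ndufs5 control replicate 4 at 10.09 lies among the Wnt4βKO arrays.

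No tested member of complex IV, cytochrome c oxidase, had an unadjusted p under 0.05. Cox4i1, the common form of the regulatory subunit, had log2 signals of 12.72, 12.46 and 12.72 in control and 12.81, 12.64, 12.78 and 12.53 in Wnt4βKO islets. The groups lay over each other, with a difference of 0.05 (95% interval -0.19 to 0.30). Cox5a gave 0.05 (-0.32 to 0.43). Cox4i2, the isoform known for its response to low oxygen, was above background on all 7 arrays and gave 0.14 (-0.14 to 0.42).

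Several complex IV subunits have a form known from heart and skeletal muscle beside the common form. Cox6a2, such a muscle form, was well above background on every array, with log2 signals of 13.37, 12.97 and 12.42 in control and 12.77, 12.29, 12.79 and 12.14 in Wnt4βKO islets. The groups overlapped, and its difference of -0.43 ± 0.26 (SE; unadjusted limma p of 0.138) was the lowest of the complex. The difference was 0.10 within slide row 1 and -0.71 within row 2. The common form Cox6a1 gave -0.01 (95% interval -0.23 to 0.21). Cox7a1, another muscle form, gave 0.10 (-0.28 to 0.49) and the common Cox7a2 gave 0.05 (-0.28 to 0.38). Cox7a2l, a factor that joins complexes III and IV, gave -0.19 (-0.55 to 0.18).

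Cox8a, the common form of its subunit, had the highest difference of the complex. Its log2 signals were 12.88, 13.02 and 13.17 in control and 13.78, 12.78, 13.24 and 13.34 in Wnt4βKO islets. Wnt4βKO replicate 2 lay below every control and the difference of 0.26 had an interval of -0.25 to 0.77. The muscle form Cox8b and the forms known from testis, Cox8c and Cox7b2, exceeded background clearly on none of the arrays. Their log2 signals lay between 5.71 and 5.92 in both groups, and no difference was computed. Cox6b2, a further testis form, was above background on all 7 arrays.

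No member of complex V had an unadjusted p under 0.05 either. In the catalytic F1 part, Atp5a1 gave a log2 difference of -0.12 (95% interval -0.36 to 0.12), Atp5b gave -0.30 (-0.89 to 0.28) and Atp5c1, the central stalk, gave -0.07 (-0.48 to 0.34). Atp5g1, Atp5g2 and Atp5g3 encode the same c subunit of the proton-conducting ring, and their differences were -0.12 (-0.62 to 0.37), -0.01 (-0.22 to 0.20) and 0.04 (-0.33 to 0.41). The ends of the complex were the small membrane subunits Atp5k and Atp5l. Atp5k had log2 signals of 10.33, 8.70 and 10.28 in control and 10.37, 11.12, 10.29 and 9.25 in Wnt4βKO islets. Its arrays spread over more than 2 log2 units and the difference of 0.49 had an interval of -0.75 to 1.73.

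Atp5l, measured on 2 control arrays because the spot of replicate 2 was excluded, had log2 signals of 13.18 and 12.86 in control and 12.52, 13.03, 12.42 and 12.55 in Wnt4βKO islets. The groups overlapped through Wnt4βKO replicate 2, and the difference was -0.39 ± 0.19 (SE; unadjusted limma p of 0.0894). Atp5j2 was the one further member whose groups did not overlap, with a log2 difference of 0.08 (unadjusted limma p of 0.241). That made 4 of 80 members with groups that did not overlap, against 7.28% of all tested probes.

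For 16 members, dimmer probes of the same gene were also tested, 18 in all. The dimmer probe had the same sign as the brightest in 12 of 18 cases, and the median absolute gap between their log2 differences was 0.16. Of the 18 dimmer probes, 2 had an unadjusted p under 0.05, where the share of all tested probes was 7.02%, so the count is too small to read against it. One was a probe of Sdha, with log2 signals of 7.31, 7.82 and 7.18 in control and 6.95, 7.10, 7.17 and 6.62 in Wnt4βKO islets, where the groups did not overlap and the difference was -0.47 ± 0.19 (SE; limma adjusted p = 0.688). The other was a probe of Atp5h, with a difference of 0.29 ± 0.11 (SE; unadjusted limma p of 0.0358), against -0.02 for its brightest probe. The dimmer probe of Sdhb gave -0.53 (unadjusted limma p of 0.240), and its lowest array was Wnt4βKO replicate 1 at 7.60. Wnt4βKO replicate 1, the array with the highest spike-in share and the lowest acinar mean, was lowest for 6 of these 18 probes. It was lowest for 3 of the 16 brightest ones, and Wnt4βKO replicate 2 was lowest for 5. Among all genes with several tested probes, Wnt4βKO replicate 1 was lowest for 1381 of 5427 dimmer and 797 of 4418 brightest probes. Control replicate 3 was lowest for 741 and 812 of these. The cause was not tested.

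**Figure D5:**
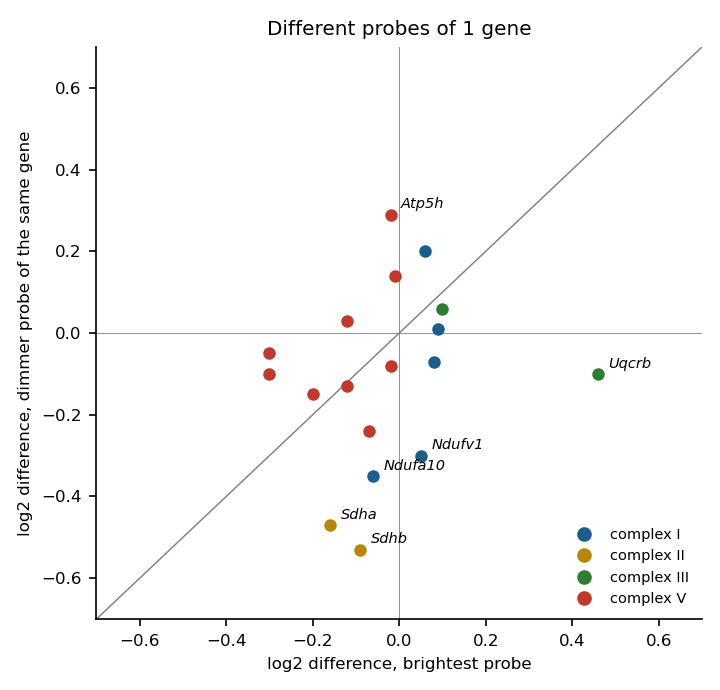
Each point is 1 dimmer probe of a subunit, with the log2 difference (Wnt4βKO minus control) of the gene's brightest probe on the x axis and its own on the y axis, coloured by complex, and the line marks equal values. Uqcrb lies farthest from the line, with 0.46 for its brightest probe and -0.10 for the dimmer one.

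Genes that work with the subunits were examined as lists. Of 84 assembly factors, electron carriers, transporters and regulators, 78 were tested. In limma none passed an adjusted p of 0.05 and 7 had an unadjusted p under 0.05, 2 of them higher and 5 lower in Wnt4βKO islets. These are 8.97% of the 78, against 7.02% of all tested probes, of which 3.26% were higher and 3.76% lower. The median log2 difference over the 78 was 0.032. By list, 1 of 14 tested assembly factors of complex I and 2 of 19 of complex IV had an unadjusted p under 0.05, and none of the 3, 5 and 4 of complexes II, III and V. Among 14 genes of electron carriers and entry there were 3, among 12 regulators 1, and among 7 transporters none.

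Pet100 and Cox16, both assembly factors of complex IV, lay in opposite directions. Pet100 had log2 signals of 8.13, 8.07 and 8.17 in control and 8.52, 8.46, 8.47 and 8.54 in Wnt4βKO islets. The groups were clearly apart, with a spread within each group of 0.05 (SD, n = 3) and 0.04 (SD, n = 4). The difference was 0.37 ± 0.06 (SE), or 130% of the control level, with an unadjusted limma p of 0.000567 and an adjusted p of 0.388. It ranged from 0.33 to 0.45 over the 20 alternatives and the unadjusted p was under 0.05 in 19 of them, including the acinar covariate (0.0130).

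Cox16 had log2 signals of 9.90, 9.93 and 10.02 in control and 9.58, 9.58, 9.67 and 9.69 in Wnt4βKO islets. Every Wnt4βKO array lay below every control, and the difference was -0.32 ± 0.07 (SE; limma adjusted p = 0.480). Over the 20 alternatives the difference ranged from -0.35 to -0.08, and the unadjusted p was under 0.05 in 15 of them. The 2 dimmer probes of Cox16 gave 0.07 and 0.02. Tmem186, an assembly factor of complex I, was near background with a difference of -0.24 ± 0.10 (SE; unadjusted limma p of 0.0397). Its unadjusted p was under 0.05 in 11 of the 20 alternatives.

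The 3 genes of electron entry with an unadjusted p under 0.05 feed the ubiquinone pool from outside complexes I and II. Gpd2, the mitochondrial glycerol-3-phosphate dehydrogenase of the glycerol phosphate shuttle, had log2 signals of 7.25, 7.80 and 7.78 in control and 7.18, 7.05, 7.07 and 7.09 in Wnt4βKO islets. The groups did not overlap. The difference was -0.51 ± 0.14 (SE), or 70.1% of the control level, with an unadjusted limma p of 0.00708 and an adjusted p of 0.547. The unadjusted p was under 0.05 in 19 of the 20 alternatives, with 0.0197 under the acinar covariate.

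Etfa, a subunit of the electron transfer flavoprotein that takes electrons from fatty acid oxidation, gave 9.86, 9.81 and 9.88 in control and 9.39, 9.55, 9.58 and 9.52 in Wnt4βKO islets. All Wnt4βKO arrays lay below the controls, with a difference of -0.34 ± 0.07 (SE; limma adjusted p = 0.480). Its 2 dimmer probes gave -0.24 and -0.14, and the unadjusted p under the acinar covariate was 0.0529. Etfdh, which passes those electrons to ubiquinone, gave -0.45 ± 0.19 (SE; unadjusted limma p of 0.0430), with overlapping groups and a p of 0.435 under the acinar covariate. Over the 20 alternatives the unadjusted p was under 0.05 in 15 for Etfa and in 10 for Etfdh. The partner subunit Etfb gave 0.09, and cytochrome c (Cycs) gave 0.05.

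Among the regulators, Ppargc1b, a coactivator of mitochondrial genes, had log2 signals of 6.14, 6.42 and 6.44 in control and 6.94, 6.62, 6.60 and 6.86 in Wnt4βKO islets. The groups did not overlap, and the difference was 0.42 ± 0.12 (SE; limma adjusted p = 0.589). The signals of Ppargc1b were near background. Over the 20 alternatives its difference ranged from 0.17 to 1.13, and the unadjusted p was under 0.05 in 19 of them. With the acinar covariate the p was 0.213. Its relative Ppargc1a gave 0.11 (unadjusted limma p of 0.234). The factors whose motif letters were counted above gave 0.28 for Nrf1 (0.0535), -0.14 for Gabpa (0.122), 0.23 for Gabpb1 (0.0932), -0.09 for Yy1 (0.482) and 0.28 for Esrra (0.161). Tfam, which maintains mitochondrial DNA, gave 0.07 (0.533).

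The count of 6 subunits depended on single arrays and on the scaling. Without Wnt4βKO replicate 2 it was 11, with 7 higher and 4 lower, and 5 of the 6 were among them, all but Uqcrb. These 11 are 13.8% of the members, and 8.50% of all tested probes had an unadjusted p under 0.05 in that setting. Ndufv3, an accessory subunit of the peripheral arm, was 1 of those added, at 0.40. Without control replicate 3 the count was 2 (2.50%, against 6.32% of all tested probes), Ndufb2 and Uqcrfs1. With the processed signal at the 75th percentile only Ndufv3 passed, at 0.58, and none of the 6 (1.25%, against 6.83% of all tested probes). With median scaling only Ndufb2 passed (1.25%, against 2.94%). With a normexp offset of 0 it was 3, of which 1 was higher (3.75%, against 6.55%). With the acinar covariate it was 2, both lower, namely Uqcrfs1 and Cox7a2l, when 2.36% of all tested probes had an unadjusted p under 0.05. The adjusted count was 0 in all of these.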

How the data were processed

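The authors deposited 1 scanner output per array with spot intensity on a linear scale, not normalized between arrays; the files name Agilent Feature Extraction 12.0.1.1 and the submitters' processing notes name version 9.1. The label protocol gives 50 ng of RNA per Cy3 labelling. Following the study's methods, the median spot signal and local background were corrected with normexp (offset 50) and quantile normalized in limma 3.58.1 (R 4.3.3). Control spots were dropped, spots with outlier flags set to missing and repeated spots averaged. A probe was tested if it exceeded background clearly on 3 or more of 7 arrays (26151 of 56605). Wnt4βKO minus control was fitted by lmFit and eBayes, two-sided, with Benjamini-Hochberg adjustment over all tested probes. Of the probes, 32994 (58.3%) were named by RefSeq accession. Only the fitting step was run on simulated log2 values, which did not test the naming, normalization or filter. A deposited value table with 7 columns did not match the scanner arrays and was not used.

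The members and lists were chosen with earlier results of these data known. Named subunits were those at an unadjusted p under 0.05, both ends of each complex, listed core subunits and tissue isoforms, and members with no tested probe; 1 subunit stays in the counts but is not reported here by itself. From the other lists, genes at an unadjusted p under 0.05 were named; the regulators and partners beside them were chosen after their values were seen. Alternatives covered background correction, scaling, filters, variance models, blocks, an acinar covariate, the mean over probes and each array left out. Further steps used Python 3.11.15. The labels do not say what the title code w11 means.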

Additional observations from a re-analysis of the deposited data

Results flagged for a closer look

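In the 4 Wnt4βKO arrays, 1 array lay apart from the other 3 for 6 of the tested subunits and for the array median of 1 complex. The gap to the nearest array, as a share of the range of the 4, exceeded Dixon's 95% critical value in these 7 of the 85 sets of values examined. Chance flags about 1 in 20, or 4.2 here.

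Wnt4βKO replicate 2 stood apart 3 times. Cox6c had a log2 signal of 7.78 there and 10.10 to 10.47 on the other Wnt4βKO arrays (gap share 0.860). Ndufa12 had 11.19 against 11.63 to 11.67 (0.903). The median of complex I was -0.15 relative to the genes' means over the arrays, against 0.05 to 0.07 (0.899).

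Wnt4βKO replicate 1 stood apart for Cox7c, with 9.97 against 10.58 to 10.66 (0.881), for Atp5a1, with 12.81 against 12.62 to 12.65 (0.831), and for Atp5j2, with 11.20 against 11.13 to 11.14 (0.872). Wnt4βKO replicate 4 stood apart for Ndufa4l2, with 7.68 against 7.01 to 7.12 (0.839).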

How the results depend on the processing

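The number of subunits past the adjusted threshold was 0 in all 20 alternatives. The lowest adjusted value among them was 0.126. The count of 6 at an unadjusted p under 0.05 became 3 with a normexp offset of 0, 1 with the processed signal at the 75th percentile, 1 with median scaling and 2 with the acinar covariate; leaving out 1 array gave 2 to 11. The count of 7 among the other pathway genes became 2 with median scaling and 4 with the acinar covariate, and 6 to 9 with 1 array left out. Over all tested probes the share at this threshold was 7.02% in the main analysis. It was 2.94% with median scaling and 2.36% with the acinar covariate, so a lower count there is no result about these genes. The median over the members became 0.141 with the processed signal at the 75th percentile and ranged from -0.014 to 0.048 with 1 array left out; within slide rows 1 and 2, a split added after seeing the data, it was 0.005 and 0.054. With the mean over probes of a gene, Uqcrb turned to -0.31, where the mean of Wnt4βKO replicate 3 held the dimmer probe alone. Among named subunits past no threshold, 72 of 594 values had another sign than in the main analysis. The cause of these shifts was not tested.

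Deviations of same-numbered arrays from their group means had correlations of -0.129, 0.23 and -0.00565, and those of the other pairs ran from -0.308 to 0.16. With so few arrays these values cannot tell whether the replicate numbers pair the samples. With a replicate block the count was 5 at an unadjusted p under 0.05 (6.25%, against 6.04% of all tested probes) and 0 adjusted. The median was 0.013, and the block left out Wnt4βKO replicate 1, which has no partner. Dim probes limit what can be said of Cox7b2, Cox8b and Cox8c.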
